A study of Mus musculus with 12 samples.

Results

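The AP-1 transcription factors were followed in mouse natural killer (NK) cells as 10 genes, taken as the rows of the deposited count table whose symbol was Fos, Fosb, Fosl1, Fosl2, Jun, Junb, Jund, Batf, Batf3 or Atf3. All 10 were found among the 50674 genes of the table, and all 10 were among the 17457 genes that passed the filter on low counts and were tested. The cells were NK cells from spleen, expanded with the growth factor IL-2, on a background labelled C57BL/6. The 4 groups, with 3 libraries each, were Mirc11-/- cells given 6 h of stimulation via NKG2D, an activating receptor, Mirc11-/- cells left untreated, wild-type cells stimulated for 6 h, and wild-type cells left untreated. Mirc11 holds the genes of 3 microRNAs, miR-23a, miR-24-2 and miR-27a, side by side. The sources used here do not give the age of the mice, the stimulating reagent or how the deletion was made. The libraries of a group are called biological replicates, with no word on whether they came from separate mice or cultures. The p-values of the main fit therefore set a difference against the spread between these libraries, estimated over all 4 groups.

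AP-1 is a family of dimeric transcription factors built from basic leucine zipper proteins. Fos proteins cannot pair with each other and bind DNA with a Jun partner, Jun proteins also pair among themselves, and Batf proteins lack the activation domains of Fos and pair with Jun proteins at sites shared with IRF factors. In lymphocytes Fos, Fosb, Jun, Junb and Atf3 are immediate-early genes, transcribed within minutes of receptor signalling and then shut off, with short-lived messenger RNAs, and AP-1 acts with NFAT and NF-kB at cytokine genes. The study's title names AP-1 activation downstream of the ubiquitin ligase TRAF6 as a process under the control of Mirc11, and a single late time point was sampled here. Levels of messenger RNA give no measure of AP-1 protein, its phosphorylation or its binding to DNA.

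The microRNAs encoded by Mirc11 recognise messages through bases 2 to 8 of their mature strand, the seed, shown in capitals in the RefSeq sequences (GRCm38.p6).
mmu-miR-23a-3p: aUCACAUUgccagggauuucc
mmu-miR-27a-3p: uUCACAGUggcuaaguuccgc
mmu-miR-24-3p: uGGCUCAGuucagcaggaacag
They lie on the plus strand of chromosome 8, at chr8:84208563-84208583, chr8:84208727-84208747 and chr8:84208875-84208896. The longest annotated 3' untranslated region of each gene (GENCODE vM21) was searched for the 7 bases complementary to each seed, and 3 of the 10 AP-1 genes held a match, against 41.6% of 12800 tested genes with such a region. Fosb held a miR-23a and a miR-27a match, Fosl2 a miR-27a match and Atf3 a miR-24 match, and the matched bases are in capitals in the messages below.
Fosb, miR-23a match: cgctgattccaaAATGTGAacccctat
Fosb, miR-27a match: ggagcgctttatACTGTGAatgagtgg
Fosl2, miR-27a match: aacttgggctggACTGTGAgcagctct
Atf3, miR-24 match: gctgatgaccagCTGAGCCactttgtg
These stretches lie at chr7:19304159-19304185 and chr7:19303914-19303940 on the minus strand, chr5:32155648-32155674 on the plus strand and chr1:191170785-191170811 on the minus strand (GRCm38). A match is a stretch of letters and was not tested as a site. Genes outside Mirc11 that may encode the same mature strands or seeds were not examined. No match of these letters was present in the annotated 3' regions of Jun, Junb, Jund, Fos, Fosl1, Batf and Batf3.

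Junb and Jund lie on the same chromosome as the deleted cluster. Junb (ENSMUSG00000052837, chr8:84974484-84978718, GRCm38) is 765.6 kb from it and Jund (ENSMUSG00000071076, chr8:70698949-70700616) is 13507.9 kb from it. The other members are on chromosomes 1 (Atf3, ENSMUSG00000026628, and Batf3, ENSMUSG00000026630), 4 (Jun, ENSMUSG00000052684), 5 (Fosl2, ENSMUSG00000029135), 7 (Fosb, ENSMUSG00000003545), 12 (Fos, ENSMUSG00000021250, and Batf, ENSMUSG00000034266) and 19 (Fosl1, ENSMUSG00000024912).

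Libraries totalled 16275766 to 18181126 counts in stimulated and 15139281 to 18528612 in untreated Mirc11-/- cells, and 20009512 to 22146334 in stimulated and 18892771 to 25342991 in untreated wild-type cells. NK markers were present throughout, with Ncr1 at 54.4 ± 8.19 and 149.8 ± 11.8 CPM (counts scaled to library size by TMM; SD, n = 3) in stimulated and untreated Mirc11-/- cells and 65.5 ± 5.22 and 129.1 ± 4.70 CPM in stimulated and untreated wild-type cells. The 14 NK markers summed to 6089.3 to 9627.2 and 15251.7 to 16865.9 CPM in stimulated and untreated Mirc11-/- libraries, and to 10577.9 to 12160.2 and 14511.2 to 17239.0 CPM in stimulated and untreated wild-type libraries. With stimulation 2 of these 14 rose and 8 fell in Mirc11-/- cells, and 4 rose and 8 fell in wild-type cells. Of all tested genes, 23.5% rose and 22.1% fell in Mirc11-/- cells, and 16.1% rose and 15.7% fell in wild-type cells. Stimulated libraries also carried more reads in 548 vomeronasal receptor genes, which NK cells are not expected to use. These genes summed to 49.1 to 85.4 CPM in stimulated and 14.6 to 17.0 CPM in untreated Mirc11-/- libraries, and to 24.8 to 41.5 CPM in stimulated and 13.6 to 17.4 CPM in untreated wild-type libraries. The highest value in each stimulated group was that of replicate 1. In each of these groups replicate 1 also stood apart from the other replicates by the spread of counts over all genes. B-cell markers, 6 in number with 2 under 1 CPM in every library, summed to 103.3 to 114.7 and 64.6 to 73.5 CPM in stimulated and untreated Mirc11-/- libraries and to 105.5 to 128.8 and 57.4 to 72.1 CPM in stimulated and untreated wild-type libraries. Of these, Ighm had 102.8 ± 8.02 and 65.4 ± 4.78 CPM in stimulated and untreated Mirc11-/- cells, and 111.7 ± 12.1 and 61.2 ± 7.99 CPM in stimulated and untreated wild-type cells (SD, n = 3). Macrophage and monocyte markers, 7 in number with 4 under 1 CPM in every library, summed to 10.8 to 15.1 and 5.3 to 9.49 CPM in stimulated and untreated Mirc11-/- libraries, and to 16 to 19.2 and 8.94 to 11.3 CPM in stimulated and untreated wild-type libraries. Of 9 tested genes of RNA quality and stress, 2 rose and 1 fell with stimulation in Mirc11-/- cells, the heat-shock genes Hspa1a and Hspa1b (3.25 ± 3.56 and 3.58 ± 3.93 CPM in stimulated Mirc11-/- cells) and Hsp90aa1 (log2 change -0.75), and 1 fell in wild-type cells, Hsp90aa1 (log2 change -0.40). The part of these markers in the results on AP-1 genes was not tested. The mitochondrial ribosomal RNA mt-Rnr2 was the most counted gene of every library, at 13.8 to 14.4% and 10.4 to 12.1% of counts in stimulated and untreated Mirc11-/- libraries, and 12.6 to 13.5% and 9.16 to 9.84% in stimulated and untreated wild-type libraries. In bulk RNA, fewer cells of a type and less RNA per cell cannot be told apart.

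**Figure D1:**
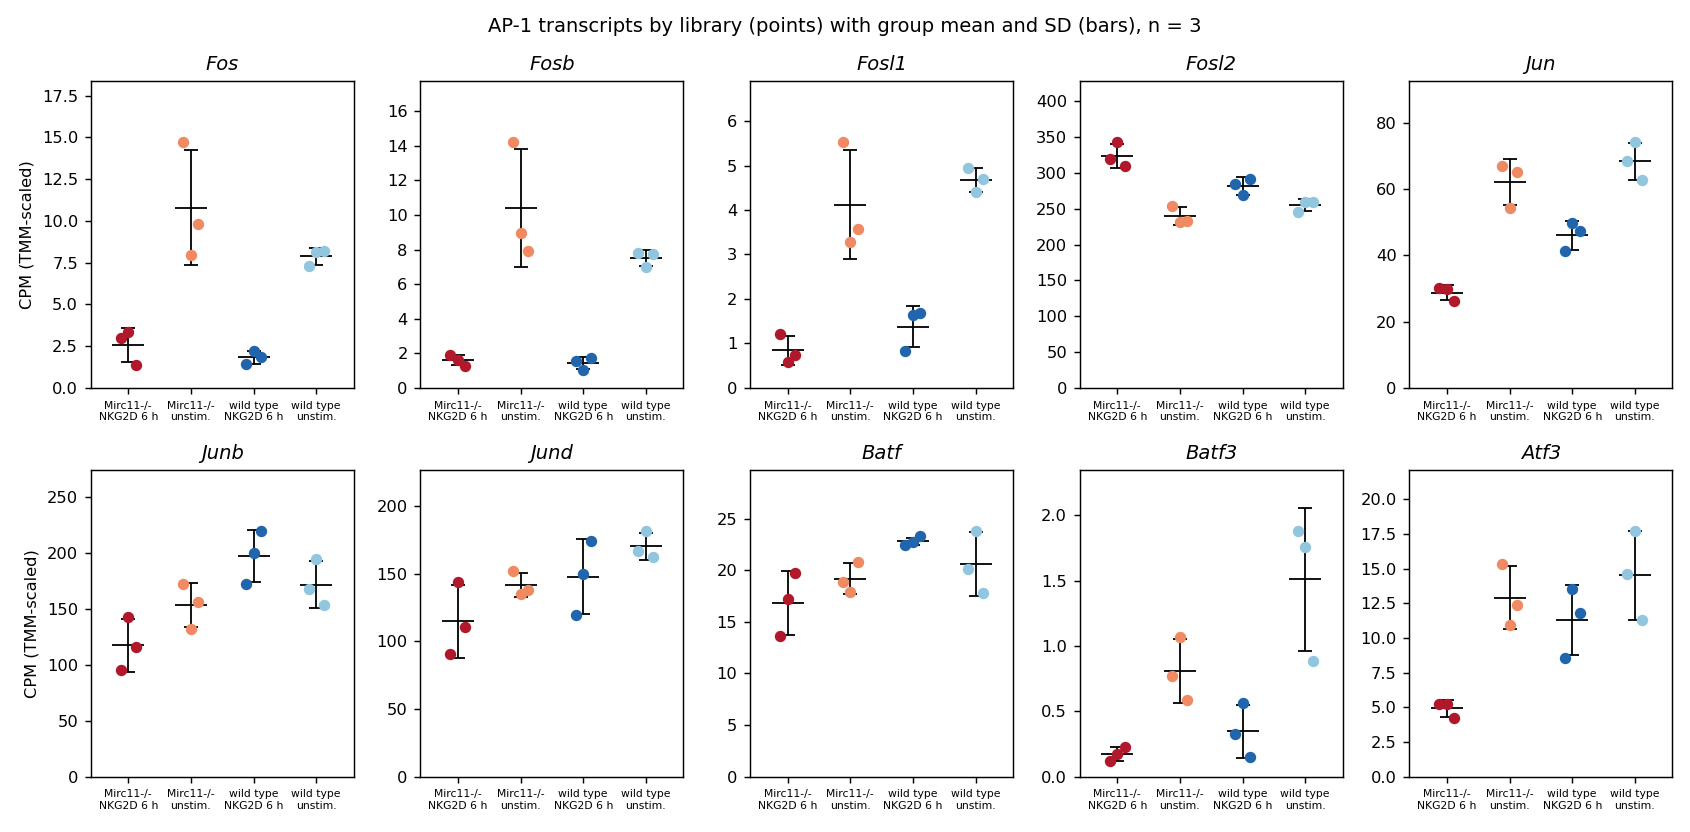
Levels of the 10 AP-1 transcripts in CPM, 1 panel per gene, with 1 point per library, and the mean and SD of 3 libraries as a bar, for the 4 groups. Fos, Fosb, Fosl1, Jun and Batf3 were lower in the stimulated libraries of both genotypes, Atf3 was lowest in stimulated Mirc11-/- libraries (4.21 to 5.27 CPM), and Fosl2 was highest there (309.3 to 342.7 CPM).

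Set against transcript length, the AP-1 message of these cells was mostly Jund, Junb and Fosl2. In untreated wild-type cells Jund, the broadly expressed Jun protein that is little induced by signals, had 102 ± 5.99 CPM per kb of merged exons, Junb 74.7 ± 9.05, and Fosl2, the long-lived Fos relative Fra-2, 26.3 ± 0.849 CPM per kb (SD, n = 3). Jun followed with 21.4 ± 1.77 and Batf with 14.6 ± 2.18 CPM per kb. Atf3 had 6.75 ± 1.5, Fos 3.35 ± 0.211, Fosl1 2.30 ± 0.135, Fosb 1.20 ± 0.0737 and Batf3 0.944 ± 0.342 CPM per kb. In this order each gene lay above the next in every library of the group, apart from Fosb and Batf3, whose ranges overlapped. Untreated Mirc11-/- cells had the same order of means, with Jund at 84.8 ± 5.41 and Junb at 66.7 ± 8.68 CPM per kb, and with overlapping ranges for Atf3 and Fos and for Fosl1 and Fosb.

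Stimulated cells of both genotypes had another order in the middle of the list. Batf stood above Jun in stimulated cells, with 12 ± 2.2 against 9.0 ± 0.707 CPM per kb in Mirc11-/- cells and 16.2 ± 0.267 against 14.4 ± 1.35 CPM per kb in wild-type cells, without overlap of the libraries in either case. Jund and Junb overlapped in both stimulated groups. As a share of the summed CPM per kb of the 10 genes, Jund, Junb and Fosl2 together made up 85.8 ± 1.61% in stimulated and 78.7 ± 0.706% in untreated Mirc11-/- cells, and 84.3 ± 1.15% in stimulated and 80.1 ± 0.696% in untreated wild-type cells. Fos, Fosb and Fosl1 together made up 1.01 ± 0.380% and 3.65 ± 0.804% in stimulated and untreated Mirc11-/- cells, and 0.693 ± 0.0855% and 2.71 ± 0.270% in stimulated and untreated wild-type cells. These shares are descriptions and were not tested.

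**Figure D2:**
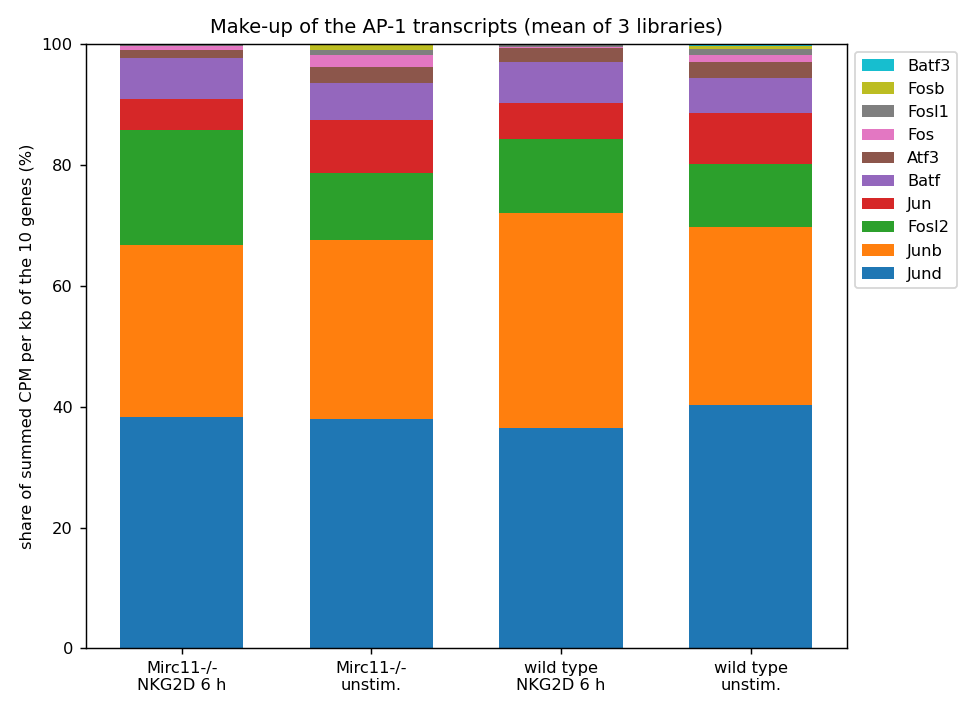
Share of each AP-1 gene in the summed CPM per kb of the 10 genes, in percent, as the mean of 3 libraries for each of the 4 groups. Jund, Junb and Fosl2 fill 78.7 to 85.8% of each bar, and the share of Fosl2 is 19.0% in stimulated against 11.1% in untreated Mirc11-/- cells and 12.2% in stimulated against 10.4% in untreated wild-type cells.

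Whether NKG2D stimulation altered the AP-1 genes was asked first in wild-type cells. Fos, Fosb, Fosl1, Jun and Batf3 fell, no member rose, and the other 5 did not pass the test. Batf3 passed the filter on low counts only through the untreated libraries, where it was higher, and its fall is given as a description. Calls were made for 31.8% of all tested genes, 15.7% lower and 16.1% higher. The median log2 change was -0.47 over the 10 members and 0.02 over all tested genes. The member median includes Batf3 and is likewise a description. Calls are those of edgeR's quasi-likelihood test with a Benjamini-Hochberg adjusted p under 0.05 over all 17457 genes.

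The messages of Fos and its early-induced relatives were low at 6 h. Fos, the founding member, had 1.44, 2.19 and 1.83 CPM in stimulated wild-type libraries, against 7.30, 8.13 and 8.18 CPM in untreated ones. The groups did not overlap, and Fos fell by 2.11 on the log2 scale ± 0.289 (SE; edgeR adjusted p = 0.000119). Fosb, whose short splice form lasts longer than Fos in stimulated cells, had 1.54, 1.02 and 1.73 CPM in stimulated wild-type libraries, against 7.81, 6.98 and 7.74 CPM in untreated ones. It fell by 2.39 ± 0.252 on the log2 scale (edgeR adjusted p = 1.34e-05), the largest fall of a member in wild-type cells. Fosl1, which encodes Fra-1 and is itself a target of AP-1, had 0.838, 1.63 and 1.68 CPM in stimulated wild-type libraries, against 4.94, 4.40 and 4.69 CPM in untreated ones. It fell by 1.76 ± 0.297 on the log2 scale (edgeR adjusted p = 0.000561), again without overlap. Fosl2 had 284.4, 268.7 and 292.3 CPM in stimulated wild-type libraries, against 245.3, 259.5 and 259.5 CPM in untreated ones, a log2 change of 0.15 ± 0.0812 that did not pass the test (edgeR adjusted p = 0.194), although the libraries did not overlap.

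Among Jun proteins in wild-type cells only Jun passed the test. Jun, the strongest activator of the Jun proteins, had 41.3, 49.6 and 47.2 CPM in stimulated wild-type libraries, against 68.3, 74.0 and 62.7 CPM in untreated ones. The groups did not overlap, and Jun fell by 0.57 ± 0.105 on the log2 scale (edgeR adjusted p = 0.00108). Junb, which often opposes Jun at shared targets, had 172.7, 199.9 and 219.8 CPM in stimulated wild-type libraries, against 167.8, 194.4 and 153.4 CPM in untreated ones. Those groups overlapped (log2 change 0.20 ± 0.147, edgeR adjusted p = 0.328). Jund had 119.2, 149.7 and 174.5 CPM in stimulated wild-type libraries, against 166.9, 181.5 and 162.3 CPM in untreated ones, overlapping as well (log2 change -0.20 ± 0.155, edgeR adjusted p = 0.348).

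Of the remaining members, Batf3 fell in wild-type cells and Batf and Atf3 did not pass the test. Batf3, known as the factor required for cross-presenting dendritic cells, was scarce, with 2 to 48 counts per library. It had 0.326, 0.561 and 0.152 CPM in stimulated wild-type libraries, against 1.88, 1.76 and 0.882 CPM in untreated ones, and fell by 2.10 ± 0.445 on the log2 scale (edgeR adjusted p = 0.00285). In CPM before TMM scaling, only the 6 untreated libraries reached 0.534 in Batf3, the level of the filter on low counts, so the gene entered the test through the groups in which it was higher. Dendritic cell markers, 6 in number with 2 under 1 CPM in every library, summed to 159.5 to 193.9 and 190.0 to 207.0 CPM in stimulated and untreated Mirc11-/- libraries and to 87.3 to 130.6 and 76.5 to 129.7 CPM in stimulated and untreated wild-type libraries. Itgax made up most of these sums, and among the 4 tested markers Zbtb46 rose by 1.20 and 1.32 log2 in Mirc11-/- and wild-type cells and Xcr1 by 0.79 log2 in Mirc11-/- cells. Their part in the values of Batf3 was not tested. Batf, a factor of effector lymphocytes that works with Irf4, averaged 22.8 ± 0.376 CPM in stimulated and 20.6 ± 3.07 CPM in untreated wild-type cells (SD, n = 3; log2 change 0.15, edgeR adjusted p = 0.409). Atf3, a stress-induced repressor, had 8.52, 13.5 and 11.8 CPM in stimulated wild-type libraries, against 14.6, 17.7 and 11.3 CPM in untreated ones, with overlapping groups (log2 change -0.36 ± 0.193, edgeR adjusted p = 0.169).

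In Mirc11-/- cells 7 members fell with stimulation (Fos, Fosb, Fosl1, Jun, Junb, Batf3 and Atf3) and Fosl2 rose, the call of Batf3 being subject to the same filter. In that comparison 45.6% of all tested genes were called, 22.1% lower and 23.5% higher. The median log2 change was -1.25 over the 10 members, Batf3 included, and 0.03 over all tested genes. This member median is a description too. Fos had 2.96, 3.32 and 1.40 CPM in stimulated Mirc11-/- libraries, against 14.7, 7.95 and 9.84 CPM in untreated ones, and fell by 2.08 ± 0.283 on the log2 scale (edgeR adjusted p = 6.74e-05). Fosb had 1.91, 1.63 and 1.29 CPM in stimulated Mirc11-/- libraries, against 14.2, 8.96 and 7.91 CPM in untreated ones, and fell by 2.68 ± 0.253 (edgeR adjusted p = 3.22e-06). Untreated Mirc11-/- replicate 1 had the highest Fos, Fosb and Fosl1 of all 12 libraries. Fosl1 had 1.22, 0.583 and 0.730 CPM in stimulated Mirc11-/- libraries, against 5.52, 3.28 and 3.57 CPM in untreated ones, and fell by 2.29 ± 0.326 (edgeR adjusted p = 9.67e-05). Batf3, with 2 to 4 counts in each stimulated Mirc11-/- library and in the test only through the untreated ones, averaged 0.172 ± 0.0544 CPM in stimulated and 0.810 ± 0.245 CPM in untreated Mirc11-/- cells (SD, n = 3) and fell by 2.19 ± 0.550 on the log2 scale (edgeR adjusted p = 0.00545).

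Jun and Atf3 were at their lowest in stimulated Mirc11-/- cells. Jun had 30.1, 29.9 and 26.1 CPM in stimulated Mirc11-/- libraries, against 66.9, 54.1 and 65.1 CPM in untreated ones. It fell by 1.11 ± 0.108 on the log2 scale, a 2.16-fold fall (edgeR adjusted p = 4e-06). Atf3 had 5.27, 5.24 and 4.21 CPM in stimulated Mirc11-/- libraries, against 15.3, 10.9 and 12.4 CPM in untreated ones. Its groups were far apart, and Atf3 fell by 1.39 ± 0.209 on the log2 scale, a 2.62-fold fall (edgeR adjusted p = 0.000148). Fosl2 moved the other way, with 319.8, 342.7 and 309.3 CPM in stimulated Mirc11-/- libraries, against 254.4, 232.1 and 232.7 CPM in untreated ones. It rose by 0.43 log2 ± 0.0814, a 1.35-fold rise (edgeR adjusted p = 0.000765).

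The fall of Junb in Mirc11-/- cells was at the edge of the test. Junb had 95.1, 142.5 and 115.6 CPM in stimulated Mirc11-/- libraries, against 172.2, 132.4 and 156.0 CPM in untreated ones, with overlapping groups. It fell by 0.38 ± 0.148 on the log2 scale (edgeR adjusted p = 0.0483). The call ended in 6 of 12 fits that left out 1 library: untreated wild-type replicate 1 (adjusted p = 0.0556), stimulated wild-type replicate 2 (0.0553), untreated Mirc11-/- replicates 1 and 3 (0.159 and 0.099) and stimulated Mirc11-/- replicates 1 and 3 (0.181 and 0.103). It also ended with a stricter filter (0.0646), without robust fitting (0.055) and with only the groups compared (0.0814). Jund had 90.4, 143.7 and 110.4 CPM in stimulated Mirc11-/- libraries, against 151.7, 134.7 and 138.1 CPM in untreated ones (log2 change -0.30 ± 0.156, edgeR adjusted p = 0.132), and was called lower without stimulated Mirc11-/- replicate 2 (edgeR adjusted p = 0.0119). Batf averaged 16.8 ± 3.10 CPM in stimulated and 19.2 ± 1.47 CPM in untreated Mirc11-/- cells (SD, n = 3; log2 change -0.19, edgeR adjusted p = 0.278).

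**Figure D3:**
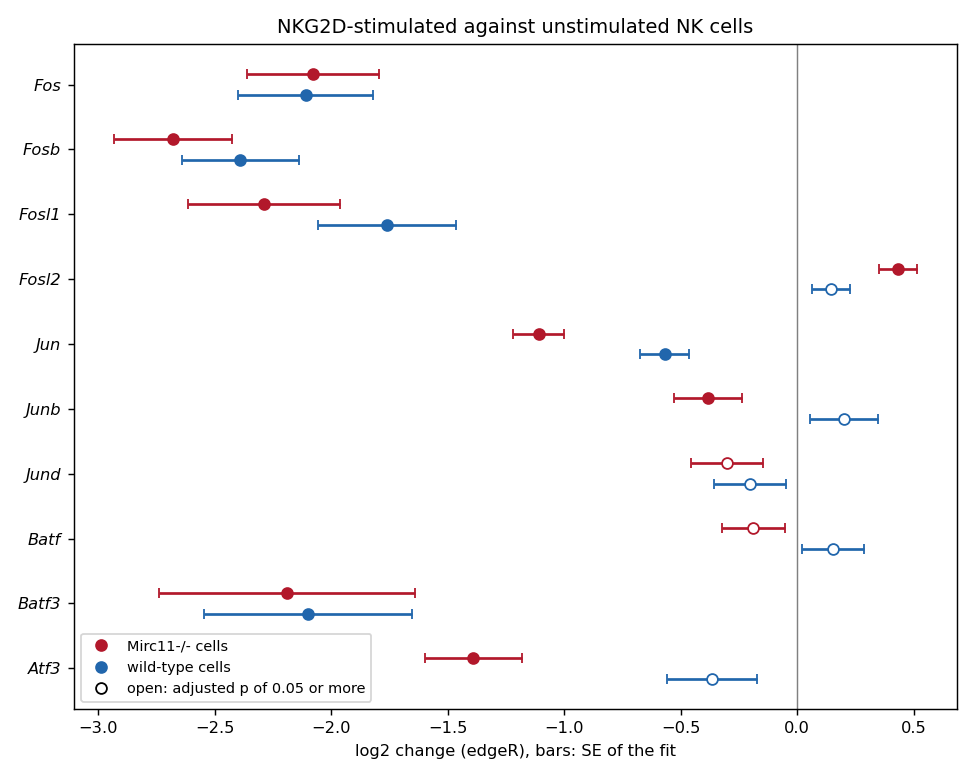
Log2 change of each AP-1 gene in stimulated against untreated cells, for Mirc11-/- cells (upper point of each gene) and wild-type cells (lower point). Bars show the SE derived from the edgeR F statistic, and filled points mark an edgeR adjusted p under 0.05. Fos, Fosb, Fosl1 and Batf3 lie between -2.68 and -1.76 log2 in both genotypes, and Jun fell by 1.11 in Mirc11-/- and by 0.57 in wild-type cells. Batf3 entered the test only through the untreated libraries, where it was higher.

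Whether the response to NKG2D differed by genotype was tested as the interaction, the change in Mirc11-/- cells minus the change in wild-type cells. None of the 10 members passed in edgeR, where 0.0115% of all tested genes were called, and DESeq2 and limma voom called 0 members as well. At an unadjusted p under 0.05 there were 4 members, Jun, Atf3, Junb and Fosl2, and 10.6% of all tested genes. Jun had an interaction of -0.54 log2 ± 0.149 (unadjusted p = 0.00278, edgeR adjusted p = 0.366), Atf3 of -1.03 ± 0.284 (0.00285 and 0.366), Junb of -0.58 ± 0.209 (0.0146 and 0.445) and Fosl2 of 0.29 ± 0.115 (0.0249 and 0.445). A call in 1 genotype and not in the other, as for Atf3, Junb and Fosl2, was therefore not shown to be a difference between genotypes. Fos and Fosb had interactions of 0.03 ± 0.388 and -0.29 ± 0.361 log2 (edgeR adjusted p 0.983 and 0.732).

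Untreated Mirc11-/- and wild-type cells were compared next, and no AP-1 gene passed the test. In edgeR 1.11% of all tested genes were called in that comparison, DESeq2 and limma voom also called 0 members, and 1 member, Batf3, had an unadjusted p under 0.05, as did 9.21% of all tested genes. Batf3 had 0.773, 1.07 and 0.586 CPM in untreated Mirc11-/- libraries, against 1.88, 1.76 and 0.882 CPM in untreated wild-type ones, with overlap (log2 difference -0.89 ± 0.408, unadjusted p = 0.0467, edgeR adjusted p = 0.533). Fosb, the member with matches to a pair of the microRNAs encoded by Mirc11, averaged 10.4 ± 3.39 CPM in untreated Mirc11-/- and 7.51 ± 0.460 CPM in untreated wild-type cells (SD, n = 3). Its libraries did not overlap, and its log2 difference of 0.47 ± 0.217 did not pass (edgeR adjusted p = 0.542). Without untreated Mirc11-/- replicate 1 the log2 difference of Fosb was 0.15 (edgeR adjusted p = 0.945). Fosl2 and Atf3, which also held a match, had log2 differences of -0.09 ± 0.0813 and -0.17 ± 0.193 (edgeR adjusted p 0.868 and 0.922).

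After stimulation, Jun, Junb and Atf3 were lower in Mirc11-/- than in wild-type cells and no member was higher. In that comparison 9.02% of all tested genes were called, 5.13% lower and 3.89% higher, and the median log2 difference was -0.56 over the 10 members and 0.02 over all tested genes. Jun averaged 28.7 ± 2.25 CPM in stimulated Mirc11-/- and 46.0 ± 4.31 CPM in stimulated wild-type cells (SD, n = 3). The library values given above did not overlap, and Jun was lower by 1.60-fold (log2 difference -0.68 ± 0.107, edgeR adjusted p = 0.00304). Junb averaged 117.7 ± 23.8 CPM in stimulated Mirc11-/- and 197.4 ± 23.6 CPM in stimulated wild-type cells, also without overlap. It was lower by 1.68-fold (log2 difference -0.75 ± 0.149, edgeR adjusted p = 0.0108), and the adjusted p was 0.0503 without stimulated wild-type replicate 2, 0.0533 without stimulated wild-type replicate 3 and 0.0687 in a fit of only the groups compared. Atf3 averaged 4.91 ± 0.604 CPM in stimulated Mirc11-/- and 11.3 ± 2.52 CPM in stimulated wild-type cells and was lower by 2.29-fold without overlap (log2 difference -1.20 ± 0.209, edgeR adjusted p = 0.00514). The calls of Jun and Atf3 held in all 12 fits that left out 1 library (highest edgeR adjusted p 0.0191 and 0.0318).

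The other members did not pass in stimulated cells. Batf had 13.6, 17.2 and 19.7 CPM in stimulated Mirc11-/- libraries, against 22.5, 22.7 and 23.3 CPM in stimulated wild-type ones. Those libraries did not overlap, and the log2 difference of -0.44 ± 0.135 had an edgeR adjusted p = 0.0557, against 0.0325 in DESeq2, 0.0117 without a filter on low counts, 0.0306 with the replicate number as a block within genotype, 0.0498 without untreated wild-type replicate 2 and 0.0339 without stimulated Mirc11-/- replicate 3. Jund had a log2 difference of -0.36 ± 0.156 (edgeR adjusted p = 0.139, and 0.0272 without stimulated Mirc11-/- replicate 2). Fosl2 had a log2 difference of 0.20 ± 0.0812 (edgeR adjusted p = 0.118), and the libraries did not overlap. Fos, Fosb, Fosl1 and Batf3 had log2 differences of 0.49, 0.17, -0.70 and -0.98, with overlapping libraries (edgeR adjusted p 0.192 to 0.709).

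**Figure D4:**
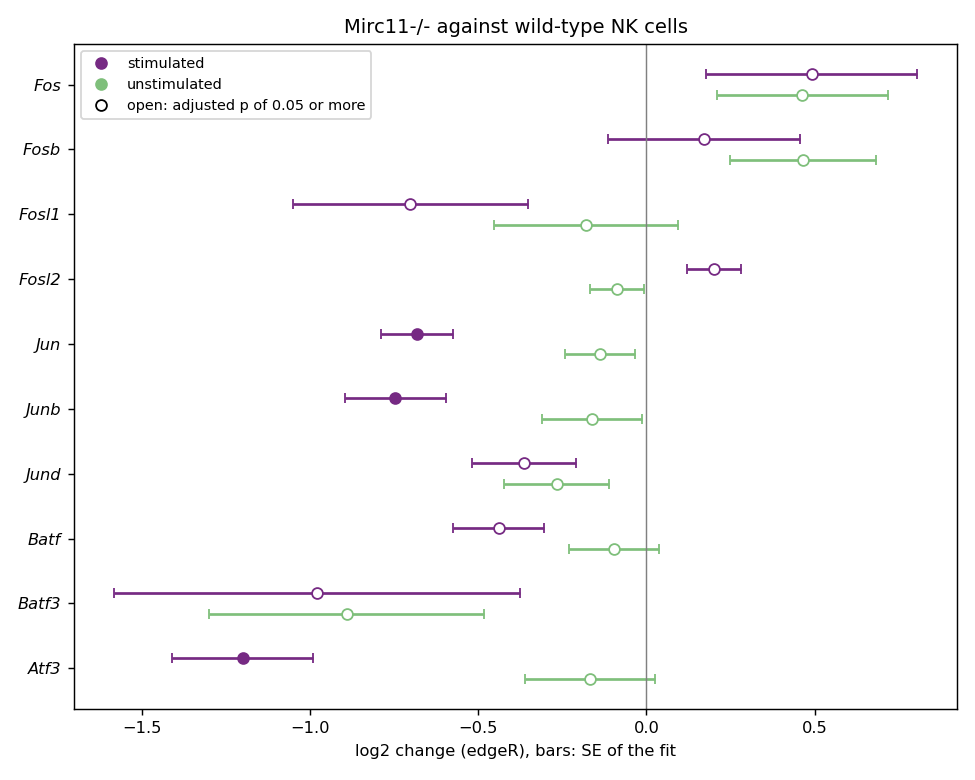
Log2 difference of each AP-1 gene in Mirc11-/- against wild-type cells, for stimulated (upper point of each gene) and untreated cells (lower point). Bars show the SE derived from the edgeR F statistic, and filled points mark an edgeR adjusted p under 0.05. Only Jun, Junb and Atf3 in stimulated cells are filled, at -0.68, -0.75 and -1.20 log2.

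The level of vomeronasal receptor reads was set beside these results. Within each stimulated group the library with the highest vomeronasal level, replicate 1, had the lowest Junb, Jund and Batf. The share of all tested genes that were lowest in that replicate was not counted, so this is a description. Jun and Atf3 were also lowest in stimulated wild-type replicate 1, and in stimulated Mirc11-/- replicate 1 they were the highest of their group. When that level entered the fit as a covariate, the falls of Fos and Fosb in wild-type cells held, at 1.72 and 2.45 lower on the log2 scale (edgeR adjusted p 0.0285 and 0.00259). Under that covariate the wild-type changes of Fosl1, Jun and Batf3 were -1.47, -0.36 and -1.36 log2 (edgeR adjusted p 0.0597, 0.135 and 0.311), and Junb and Jund were called higher by 0.82 and 0.47 log2 (0.00211 and 0.0214). In Mirc11-/- cells none of the 8 calls held under it: Fosb was at -2.81 log2 (adjusted p = 0.0733), Fos at -1.29 (0.431), Fosl1 at -1.66 (0.355), Jun at -0.68 (0.187), Atf3 at -0.16 (0.886), Batf3 at -0.78 (0.826), Fosl2 at 0.53 (0.181) and Junb at 0.83 (0.0842). Jund was then called higher by 1.05 log2 (edgeR adjusted p = 0.0229). The differences between stimulated genotypes were -0.45, -0.10 and -0.52 log2 for Jun, Junb and Atf3 (edgeR adjusted p 0.802, 0.964 and 0.950). Calls were also fewer over all 17457 tested genes under the covariate. In Mirc11-/- stimulation 297 were called higher and 263 lower, against 4106 and 3852 without it. In wild-type stimulation 2001 and 1864 were called, against 2814 and 2745, and between stimulated genotypes 10 and 20, against 679 and 896. Vomeronasal levels did not overlap between stimulated and untreated libraries of either genotype, nor between stimulated Mirc11-/- and stimulated wild-type libraries, so this level and the groups cannot be told apart.

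**Figure D5:**
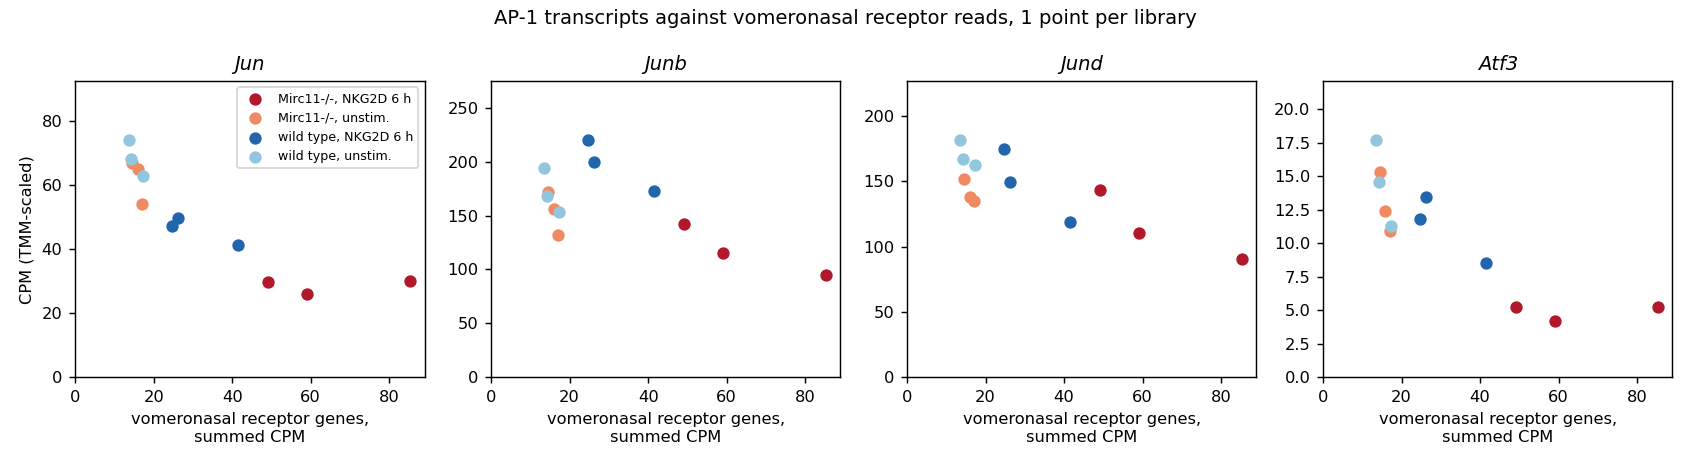
Level of Jun, Junb, Jund and Atf3 in CPM against the summed CPM of 548 vomeronasal receptor genes, with 1 point per library and 1 colour per group. Stimulated Mirc11-/- libraries lie at 49.1 to 85.4 CPM on the horizontal axis and untreated libraries of both genotypes at 13.6 to 17.4 CPM; in each stimulated group the point farthest to the right is the lowest for Junb and Jund.

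Some members share their place in the genome with another transcript, and the strand setting of the counting is not given. Junb overlaps Prdx2, an antioxidant enzyme gene on the other strand, which had log2 differences of -0.69 between stimulated genotypes (edgeR adjusted p = 0.0333) and -0.19 with stimulation in Mirc11-/- cells (0.411). Jun overlaps the antisense RNA Junos, at 0.674 to 2.05 CPM. Jund overlaps the unnamed model Gm11175, at 3.19 to 45.0 CPM, with stimulation changes of -3.15 log2 in Mirc11-/- cells and -1.54 log2 in wild-type cells (edgeR adjusted p 0.00120 and 0.0330). Fosl1 overlaps Ccdc85b, at 1.10 to 3.04 CPM. Overlap was judged from the spans of the gene models, and whether reads were shared within these pairs was not tested.

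The promoters of Jun and Fos, which fell in both genotypes, are shown as the 250 bases before the RefSeq start (GRCm38.p6), Jun at chr4:95052223-95052472 on the minus strand and Fos at chr12:85473640-85473889 on the plus strand. Capitals mark TGACATCA, the variant AP-1 element known from the Jun promoter, and TGACGT, the core of the cyclic AMP response element.
Jun promoter: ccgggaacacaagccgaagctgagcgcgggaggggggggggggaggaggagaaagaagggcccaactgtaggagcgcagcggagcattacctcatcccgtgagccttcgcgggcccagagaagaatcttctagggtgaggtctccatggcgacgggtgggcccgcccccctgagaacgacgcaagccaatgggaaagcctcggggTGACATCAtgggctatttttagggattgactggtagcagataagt
Fos promoter: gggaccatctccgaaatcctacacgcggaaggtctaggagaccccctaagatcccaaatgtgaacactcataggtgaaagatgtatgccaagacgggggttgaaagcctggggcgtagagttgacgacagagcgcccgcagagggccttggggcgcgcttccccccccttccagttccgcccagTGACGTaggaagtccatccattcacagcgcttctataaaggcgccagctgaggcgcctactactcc
On either strand, TGACATCA was present in 2.93% of 32851 such windows and in 1 of the 9 members with a window, Jun, where it begins 45 bases before the start. TGACGT was present in 6.47% of windows and in 3 of the 9, Fos, Batf and Atf3. The consensus AP-1 element TGACTCA, the full response element TGACGTCA, which contains TGACGT, and the CArG box of serum response factor were in 4.46%, 1.55% and 1.47% of windows and in 0 of the 9. Bases farther than 250 from the start were not searched, so a 0 does not show that a gene lacks the element. The Jund window, chr8:70697489-70697738, ended before the Jund gene model used here, which begins at chr8:70698949. The windows of Atf3, Fosl2 and Batf3 lay inside their gene models, and those of Batf and Fosb partly inside. For Atf3 the window was chr1:191183334-191183583, in a gene at chr1:191170296-191218039 on the minus strand. The AU-rich element TTATTTATT, known to mark short-lived messages, was present in the annotated 3' region of Fos and Fosl2, and in 8.63% of the 12800 tested genes with such a region.

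Related basic leucine zipper factors were counted in the same way. Of 16 tested partners and relatives (19 in the table), 2 rose and 8 fell in Mirc11-/- cells, with a median log2 change of -0.28, and 3 rose and 7 fell in wild-type cells, with a median of -0.26. Over all tested genes 23.5% rose and 22.1% fell in Mirc11-/- cells (median 0.03) and 16.1% rose and 15.7% fell in wild-type cells (median 0.02). The genes of the small Maf proteins, which lack an activation domain, fell with the smallest edgeR p-values of this list in both genotypes. Maff had 5.96 ± 1.62 and 22.7 ± 1.04 CPM in stimulated and untreated Mirc11-/- cells, and 9.33 ± 1.90 and 22.0 ± 2.21 CPM in stimulated and untreated wild-type cells (SD, n = 3). It fell by 1.93 and 1.24 on the log2 scale in Mirc11-/- and wild-type cells (edgeR adjusted p 2.91e-06 and 0.000119). Mafk fell by 1.15 and 0.90 and Mafg by 0.80 and 0.64 (highest edgeR adjusted p 6.78e-05). Between stimulated genotypes 4 of the 16 were lower in Mirc11-/- cells and none higher, against 5.13% lower and 3.89% higher over all tested genes, among them Jdp2, a Jun-binding repressor, with 16.2 ± 3.18 CPM in stimulated Mirc11-/- and 31.8 ± 2.41 CPM in stimulated wild-type cells (log2 difference -0.97 ± 0.128, edgeR adjusted p = 0.00106). Maff and Atf1 were lower there by 0.64 and 0.34 (edgeR adjusted p 0.0443 and 0.0417). In untreated cells 1 of the 16 passed, against 1.11% of all tested genes. It was Nfe2l2, the oxidative stress factor Nrf2, higher in Mirc11-/- cells by 0.43 log2 (edgeR adjusted p = 0.0357).

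Genes that act on the Fos promoter and upstream of AP-1 were also followed. Of 6 serum response factor and partner genes, 2 fell in Mirc11-/- cells and 3 in wild-type cells, and none rose, against 22.1% and 15.7% of all tested genes that fell. Srf, the factor that holds the serum response element of Fos, had 20.8 ± 2.90 and 39.6 ± 1.89 CPM in stimulated and untreated Mirc11-/- cells, and 27.9 ± 1.57 and 35.4 ± 1.68 CPM in stimulated and untreated wild-type cells (SD, n = 3). It fell by 0.93 and 0.35 on the log2 scale in Mirc11-/- and wild-type cells (edgeR adjusted p 1e-05 and 0.0160), and was lower by 0.42 in stimulated Mirc11-/- than in stimulated wild-type cells (0.0242). Elk1, its MAP kinase-regulated partner, fell by 0.74 and 0.51 in Mirc11-/- and wild-type cells (edgeR adjusted p 4.11e-05 and 0.000976). Of 16 MAP kinase pathway genes, 1 rose and 3 fell in Mirc11-/- cells and 2 rose and 2 fell in wild-type cells, against 45.6% and 31.8% of all tested genes called in either direction. Map3k1, a kinase of the JNK branch that phosphorylates Jun, rose by 0.64 and 0.59 log2 in Mirc11-/- and wild-type cells (edgeR adjusted p 0.000498 and 0.00141). Rps6ka1, a kinase downstream of ERK, fell in Mirc11-/- cells by 0.66 (edgeR adjusted p = 8.69e-05) and was lower by 0.45 in stimulated Mirc11-/- than in stimulated wild-type cells (0.0131).

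Among the NFAT and IRF genes whose proteins bind next to AP-1 or Batf, 1 of 5 rose and 1 fell in each genotype. The shares of all tested genes that rose and fell were 23.5% and 22.1% in Mirc11-/- cells and 16.1% and 15.7% in wild-type cells. Irf4, the partner of Batf, had 29.6 ± 3.96 and 9.63 ± 1.08 CPM in stimulated and untreated Mirc11-/- cells, and 56.3 ± 7.22 and 8.32 ± 1.22 CPM in stimulated and untreated wild-type cells (SD, n = 3). It was lower by 0.93 on the log2 scale in stimulated Mirc11-/- than in stimulated wild-type cells (edgeR adjusted p = 0.00162), while Batf, in the same comparison, was at -0.44. Nfatc2 fell by 1.71 and 1.98 on the log2 scale in Mirc11-/- and wild-type cells (edgeR adjusted p 0.000251 and 0.000158). Of 20 textbook AP-1 target genes 12 were tested, of which 4 rose and 4 fell in Mirc11-/- cells and 6 rose and 3 fell in wild-type cells. Their median log2 change was 0.15 in Mirc11-/- cells and 0.56 in wild-type cells, against 0.03 and 0.02 over all tested genes. Of all tested genes, 23.5% rose and 22.1% fell in Mirc11-/- cells, and 16.1% rose and 15.7% fell in wild-type cells. Cd44, an adhesion receptor, had 89.1 ± 7.31 and 44.7 ± 5.37 CPM in stimulated and untreated Mirc11-/- cells (SD, n = 3) and rose by 1.0 log2 (edgeR adjusted p = 8.43e-06). In wild-type cells it had 104.1 ± 9.14 and 46.7 ± 3.44 CPM in stimulated and untreated cells. Icam1 rose by 0.79 and 1.39 log2 in Mirc11-/- and wild-type cells (edgeR adjusted p 6.51e-05 and 9.14e-07). Between stimulated genotypes 1 of the 12 was higher and 4 were lower in Mirc11-/- cells, against 3.89% and 5.13% of all tested genes. Gja1 was the higher one, by 1.46 log2 (edgeR adjusted p = 0.00235). The cytokine genes Csf2 and Ifng, for GM-CSF and interferon-gamma, were lower in stimulated Mirc11-/- than in stimulated wild-type cells, with log2 differences of -1.56 and -1.60 (edgeR adjusted p 0.00235 and 0.000214). Csf2 rose with stimulation by 2.18 and 3.67 log2 in Mirc11-/- and wild-type cells (3.67e-05 and 7.6e-07). Ifng rose by 2.24 log2 in wild-type cells (1.35e-06). It was the 1 of the 12 that passed the interaction, at -1.87 log2 (edgeR adjusted p = 0.0223), against 0.0115% of all tested genes. The list of targets was chosen with earlier results of these data known, so its counts are descriptions. In untreated cells 2 of the 12 were higher in Mirc11-/- cells, against 0.309% of all tested genes. These were Gja1, which encodes a gap junction protein, by 1.61 log2 and Mmp9, a matrix metalloproteinase gene, by 1.69 log2 (edgeR adjusted p 0.00349 and 0.0169).

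The genes closest to 3 of the members in pattern were looked up among tested genes whose log2 CPM averaged 2 or more, by the root mean square difference of log2 CPM over the 12 libraries after centring each gene on its mean. Closest to Fos was Rgl1, with a difference of 0.268 and levels of 2.54 ± 0.591 and 10.5 ± 0.264 CPM in stimulated and untreated Mirc11-/- cells, and 2.51 ± 0.664 and 8.14 ± 0.559 CPM in stimulated and untreated wild-type cells (SD, n = 3). Cdk14 and Pglyrp2 followed with 0.304 and 0.309. Closest to Junb was the glucose transporter gene Slc2a3 (0.102), at 119.6 ± 27.7 and 144.0 ± 4.99 CPM in stimulated and untreated Mirc11-/- cells and 186.9 ± 28.5 and 172.3 ± 15.1 CPM in stimulated and untreated wild-type cells, then Lonp1 and Nkiras2 (0.116 each). Closest to Batf were Cst3, Elovl1 and Pdcd6 (0.0509, 0.0643 and 0.0657). These are descriptions over libraries that share their groups and were not tested.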

How the data were processed

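RNA was polyadenylated RNA prepared with an Illumina TruSeq kit, per the labels' protocols. The deposited table held expected counts per gene, not scaled between libraries, which the authors had rounded to whole numbers. The submitters' processing notes name bcl2fastq, Trim Galore 0.4.1, Bowtie2 2.2.8, RSEM 1.3.0 and GRCm38; the annotation release and strand setting are not given in the sources used here. Genes were filtered with filterByExpr (minimum count 10), scaled by TMM and tested by quasi-likelihood in edgeR 4.0.16 (R 4.3.3; glmQLFit, robust), with 1 mean per group over 12 libraries, two-sided tests, and p-values adjusted over all tested genes at 0.05. The SE given with an edgeR log2 change was derived from the quasi-likelihood test. It is the absolute log2 change divided by the square root of the F statistic. CPM uses the TMM-scaled total of the tested genes. Alternatives were DESeq2 1.42.0, limma 3.58.1 voom, other scalings and filters, replicate number as a block, the log2 vomeronasal level as a covariate, only the groups compared, and each library left out. Gene models were GENCODE vM21 (GRCm38), and promoter and microRNA sequences RefSeq GRCm38.p6. The pattern search used log2(CPM + 0.5). Totals were 15139281 to 25342991 counts per library. The fit was tested on simulated data.

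The members, lists and alternatives were chosen with earlier results of these data known. Named genes were the 10 members, and from every other list up to 3 genes past the threshold with the smallest p in each comparison; some of these are given only in counts. The genes overlapping a member were chosen by position. Deviations of same-numbered replicates from their group means had correlations of -0.133 to 0.190, with 6 of 18 over 0.1. Differently numbered replicates were not compared, so whether the numbers pair the libraries was not settled. The main fit did not use them.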

Additional observations from a re-analysis of the deposited data

How the results depend on the processing

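Of the 10 AP-1 genes, Fos, Fosb, Fosl1, Jun and Batf3 were called in wild-type stimulation under 22 of 23 other settings, and 4 genes (Fos, Fosb, Junb and Jund) under the vomeronasal covariate. Batf3 passed the filter on low counts only through the untreated libraries, where it was higher, so its calls are given as a description. Calls for Mirc11-/- stimulation numbered 7 to 9 when single libraries were left out and 1 (Jund) with the covariate. Over all tested genes, 3488 to 4452 were called higher and 3272 to 3954 lower in those leave-out fits, and 297 and 263 with the covariate. No call was made for untreated genotypes under any setting. For the interaction, 1 member (Atf3, adjusted p = 0.0190) was called without a filter, where the median of all genes shifted by 0.18 log2 (0.735 for Mirc11-/- stimulation). Between stimulated genotypes, leaving out single libraries gave 2 to 4 calls, against 0 with the covariate. Among these leave-out fits, calls over all tested genes were fewest without stimulated wild-type replicate 2, at 77 higher and 260 lower. They were most without stimulated Mirc11-/- replicate 2, at 1155 and 1242. Calls over all tested genes were 10 and 20 with the covariate, and 54 and 154 in a fit of only the groups compared. A replicate block across all groups gave 5, 8, 0, 0 and 3 calls for wild-type stimulation, Mirc11-/- stimulation, the interaction, untreated and stimulated genotypes, the counts of the fit without the block; within genotype the block gave 5, 7, 0, 0 and 4, Junb being lost in Mirc11-/- stimulation (adjusted p = 0.0929) and Batf gained between stimulated genotypes. Over all tested genes, 966 were called higher and 1176 lower between stimulated genotypes with the block across groups. With the block within genotype 1045 and 1349 were called, against 679 and 896 without a block. The causes were not tested.

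Signs turned for 28 member values. With the covariate they turned for wild-type stimulation Jund 0.47 and Atf3 0.24 log2, for Mirc11-/- stimulation Junb 0.83, Jund 1.05 and Batf 0.47, for the interaction Junb 0.01, Jund 0.58 and Batf3 0.58, and between stimulated genotypes Jund 0.36. For the interaction Fos was -0.04 without a filter and -0.02 in limma voom, where Batf3 was 0.06. Leaving out single libraries gave, for the interaction, Fos -0.21 to 0.32, Fosb -0.49 to 0.00, Jund -0.30 to 0.06 and Batf3 -0.44 to 0.41 log2; for untreated genotypes Batf -0.19 to 0.02; and for stimulated genotypes Fosb -0.02 to 0.32. Of these, Jund with the covariate passed the test in both genotypes and Junb had been called in Mirc11-/- stimulation; the others passed in neither setting. Fitting only the groups compared was not possible for the interaction, which uses all of them. Depth limits Batf3 most, at 2 to 48 counts per library.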
